A study of Mus musculus with 8 samples.

Results

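The genes described here make, remodel and break down the phospholipids and sphingolipids of the liver. They are 41 genes taken by symbol from the 27179 genes of the deposited liver table, and the list spans choline and ethanolamine phospholipid synthesis, acyl remodelling, ceramide synthesis and sphingomyelin turnover. All 41 had reads, against 18937 genes with reads in the whole table. RNA was sequenced in 8 libraries from livers of adult male C57BL/6NHsd mice, an inbred strain, after a 6 h fast, and the labels number the libraries as replicates without saying that each is a separate animal. Of these libraries, 4 were wild-type and 4 were homozygous for V227A, which puts alanine in place of a valine of the nuclear receptor PPARɑ. The substitution was placed in the germline by adenine base editing, so every cell of the animal carries it, and the colony goes back to 1 heterozygous founder that was backcrossed to the same strain. Mice were 12 to 14 weeks old and came from crosses of heterozygotes.

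The deposited level of a gene is 1 value, the mean log2 CPM over all 8 libraries of both genotypes, where CPM is the read count scaled by the size of the library. It was read here as the log2 of a mean CPM, not as a mean of log2 values. It has no value per library and no value per genotype, so a difference between V227A and wild-type livers was not analysed here and no spread between mice can be given. What follows is therefore the make-up of this lipid pathway in the fasted male liver of the combined genotypes. Levels were compared between genes per kb of exon (CPM per kb), since a longer mRNA yields more reads. *Ppara* itself stood at 86.5 CPM per kb, a level that cannot show which allele a liver carries. The mean library held about 27474000 assigned reads, as estimated from the level that genes without reads take in the table, and the size of each library is unknown.

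As background, phosphatidylcholine is the main phospholipid of hepatocyte membranes, of bile and of the surface of secreted lipoproteins. The liver makes it by the CDP-choline pathway and, unlike most tissues, also by methylating phosphatidylethanolamine. Ceramide is the hub of sphingolipid metabolism, built on serine and palmitoyl-CoA in the endoplasmic reticulum and turned into sphingomyelin or glycosphingolipids in the Golgi. PPARɑ is a fatty acid sensor that binds DNA with RXR at pairs of half-sites, and its targets include genes of lipid synthesis and breakdown.

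The 41 genes spread over more than 4 orders of magnitude, and most of them lay above the middle of the transcriptome. Their median was 3.68 CPM per kb, beside 1.15 for the 17300 genes that had reads and a known length. At or above that median of all genes lay 31 of the 41, and 8 lay at or above 19.0 CPM per kb, the 90th percentile of all genes. The 10 genes below the median of all genes were *Lpcat1*, *Lpcat2*, *Lpcat4*, *Mboat1*, *Mboat2*, *Cers4*, *Cers5*, *Cers6*, *Sgms1* and *Smpd3*. They are 5 acyltransferases of phospholipid remodelling, 3 ceramide synthases, a sphingomyelin synthase and a neutral sphingomyelinase. Among the 11367 genes whose deposited mean log2 CPM was at least 0, the median was 3.42 and 21 of the 41 genes reached it. The median of the 41 genes lay at the 51.9th percentile of that narrower set. *Lpcat1*, *Lpcat4*, *Mboat1* and *Mboat2* lay under its limit but were kept among the 41, which lowers the place of the list.

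**Figure D1:**
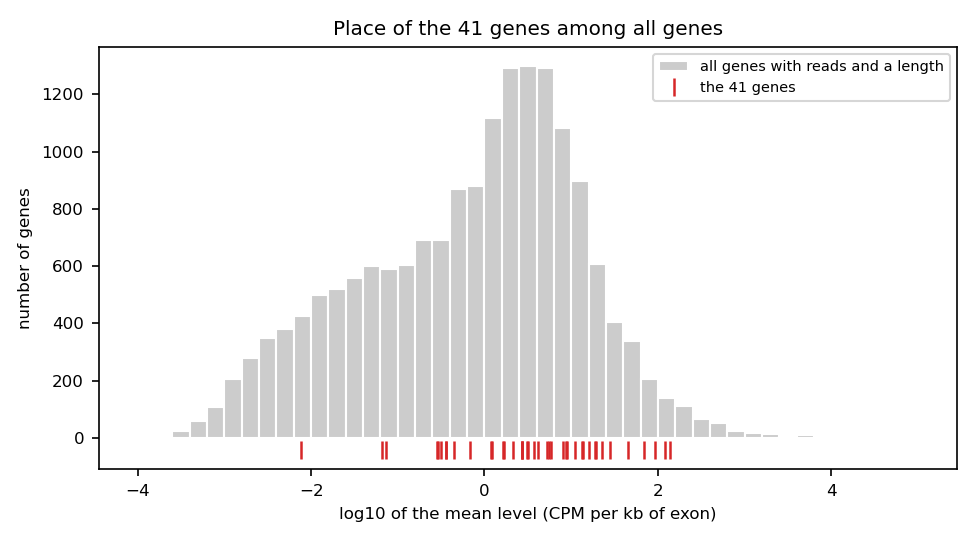
Histogram of the mean level of the 17300 genes with reads and a length, on a log10 axis of CPM per kb of exon, with a red tick for each of the 41 genes. Ticks lie mainly right of the centre, with 31 at or above the median of 1.15 CPM per kb and a single tick, *Mboat2*, far to the left.

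A few genes held most of the signal. *Pcyt2*, *Pemt* and *Etnk2* together made up 51.3% of the summed level per kb of the 41 genes, and the 10 highest genes made up 83.4%. The 5 highest were *Pcyt2* at 138.7, *Pemt* at 120.6, *Etnk2* at 91.9, *Cers2* at 69.3 and *Pla2g12b* at 45.2 CPM per kb. Their estimated reads over all libraries ran from 11731 for *Pla2g12b* to 132460 for *Pcyt2*, and counting alone leaves an error of 1.81% or less. Measured per longest transcript or per exons paired with RefSeq transcripts, the same 5 genes led. Per kb of coding sequence *Chpt1* took the place of *Pla2g12b*.

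At the other end stood genes with a low RNA level per kb in whole liver. *Mboat2* had 0.00755 CPM per kb, from an estimated 15.9 reads over all 8 libraries. *Lpcat1* had 0.0654 CPM per kb and *Mboat1* 0.0726, from 66.6 and 58.4 reads. Their 95% Poisson intervals, which cover counting error only, were 0.0507 to 0.0831 for *Lpcat1* and 0.0551 to 0.0939 for *Mboat1*, so the order of this pair cannot be told. *Cers4* (0.28 CPM per kb) and *Lpcat2* (0.29) complete the 5 lowest genes. The Poisson intervals of *Cers4* (0.26 to 0.30), *Lpcat2* (0.25 to 0.33) and *Lpcat4* (0.27 to 0.36) overlapped, and per coding sequence *Cers4* left the 5 lowest, at 2.92 CPM per kb.

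**Figure D2:**
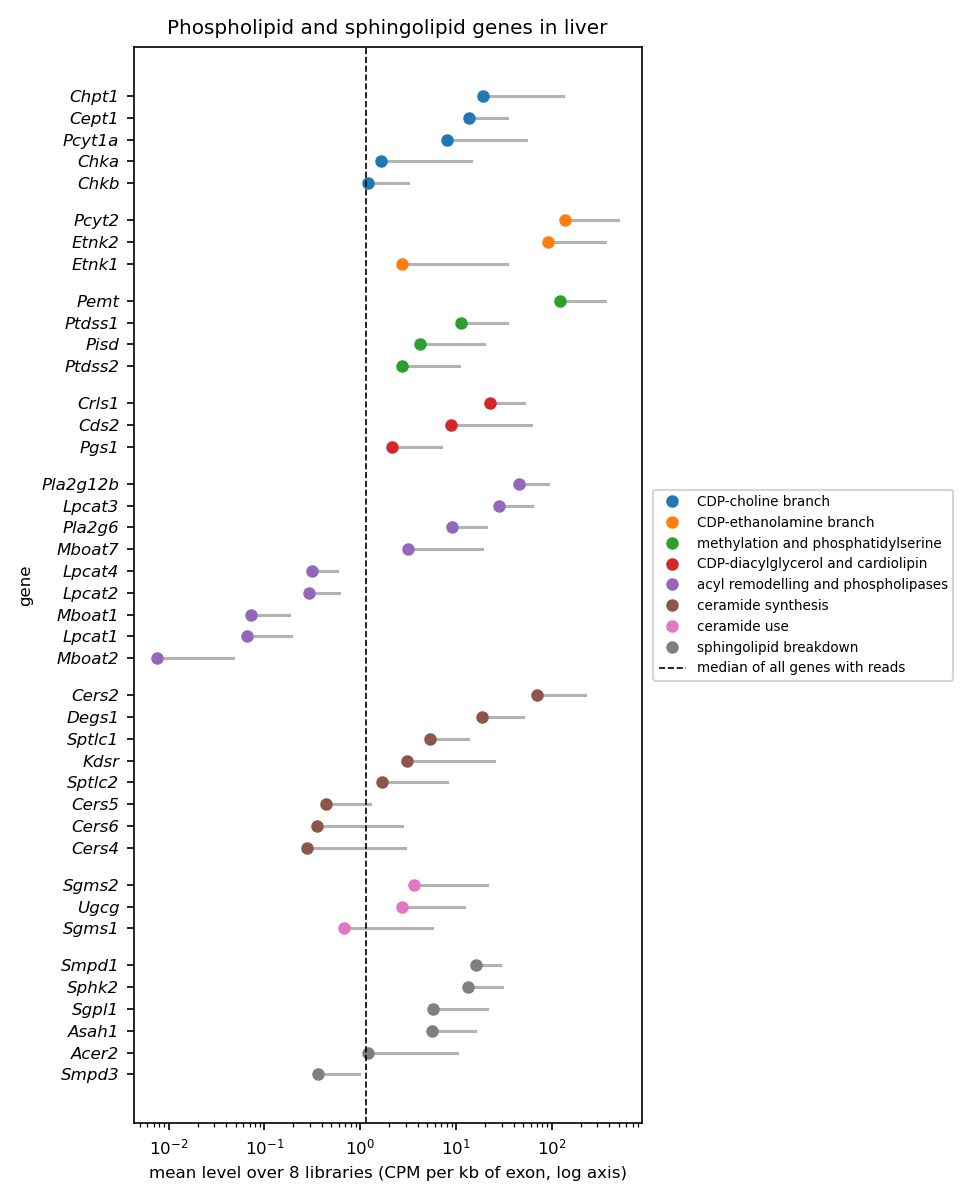
Mean level of each of the 41 genes over the 8 libraries, in CPM per kb of exon on a log axis, grouped by pathway step. Points use the summed exons of the gene, grey lines reach to the highest value among 4 ways to measure length, and the dashed line is the median of all genes with reads (1.15). *Pcyt2*, *Pemt* and *Etnk2* stand farthest right and *Mboat2* farthest left.

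The promoters of the list were read for the sites that PPARɑ and its relatives bind. RefSeq promoter windows on GRCm38, from 250 bases before to 50 bases after a start site, were found for 37 of the 41 genes. *Asah1*, *Pcyt2*, *Ptdss1* and *Smpd3* had none. The PPAR element searched was a direct repeat of the half-site AGGTCA with a spacer of 1 base, on both strands with up to 2 mismatches. It was found for 3 of the 37 genes, *Cers2*, *Sgms2* and *Pla2g12b*, or 8.11%, against 4.403% of all 27025 genes with a window and 3.85% of the 12655 protein-coding genes with reads. A gene counted if any of its windows held a match, so genes with more windows had more sequence searched. *Sgms2* has 6 windows, and only the window printed in part below held a match. No window of the list held a match with fewer mismatches than 2. A match of letters is a description and does not show that a receptor binds there. The windows around these matches are given here with the matches in capitals, since they are the only ones of the list. All of them lie on the other strand of the gene, so the capitals read as the reverse complement of the element. The *Sgms2* stretch of 20 capitals is a pair of overlapping matches, and the *Cers2* window holds 2 separate ones. The *Cers2* matches belong to an internal start site (window at chr3:95318580-95318879), and the window near the beginning of the gene (chr3:95314940-95315239) held none. The windows lie at chr3:95318608-95318748 (plus strand, *Cers2*), chr3:131491472-131491541 (minus strand, *Sgms2*) and chr10:59403552-59403614 (plus strand, *Pla2g12b*).
Cers2: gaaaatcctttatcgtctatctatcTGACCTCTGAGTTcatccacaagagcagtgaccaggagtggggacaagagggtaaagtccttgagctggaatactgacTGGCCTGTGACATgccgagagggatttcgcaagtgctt
Sgms2: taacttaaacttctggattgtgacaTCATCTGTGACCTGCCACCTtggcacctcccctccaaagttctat
Pla2g12b: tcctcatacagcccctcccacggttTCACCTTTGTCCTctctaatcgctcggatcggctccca

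Synthesis of phosphatidylethanolamine and phosphatidylcholine starts with kinases that trap the free head group, and here the ethanolamine side was far more abundant. *Etnk2*, the ethanolamine kinase enriched in liver, held 97.1% of the summed level of both ethanolamine kinases, and *Etnk1*, its more widely expressed relative, stood at 2.73 CPM per kb. The ratio was 33.7, and it ranged from 10.5 to 33.7 over the 4 ways to measure length. The choline kinases were both low. *Chka* had 1.63 and *Chkb* 1.22 CPM per kb, a ratio of 1.34 that rose to as much as 4.58 with other lengths. *Chkb* shares 50.7% of its exonic bases with an annotated read-through gene on the same strand, which had 0 CPM in the table, and how reads in that stretch were assigned is not stated. *Etnk2* stood 56.4-fold above *Chka* (25.05 to 56.4 over the lengths).

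The enzymes that follow, which set the pace of each branch, showed the same tilt. *Pcyt2*, which makes CDP-ethanolamine, was 17.4-fold above *Pcyt1a*, which makes CDP-choline and stood at 7.97 CPM per kb. Over the lengths this ratio ran from 9.26 to 27.1. *Pcyt1b*, the second choline form, was close to absent at 0.0177 CPM per kb. The last step, which joins the CDP-alcohol to diacylglycerol, did not share that tilt. *Chpt1*, which makes phosphatidylcholine, had 19.2 CPM per kb and *Cept1*, which accepts choline and ethanolamine, had 13.6. *Selenoi*, the ethanolamine phosphotransferase that is not among the 41 genes, had 2.35 CPM per kb. Exons on the opposite strand covered 24.7% of the exonic bases of *Cept1*, and whether the counting used strand is not stated. The 3 genes of the ethanolamine branch held 34.1% of the summed level of the list, beside 6.37% for the 5 genes of the choline branch.

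*Pemt*, the methyltransferase that turns phosphatidylethanolamine into phosphatidylcholine and is characteristic of hepatocytes, was the second gene of the list at 120.6 CPM per kb. It was 15.1-fold above *Pcyt1a*, the rate-setting enzyme of the other route to phosphatidylcholine (6.68 to 20.5 over the lengths). A list of 11 genes that were not among the 41 held genes of choline, ethanolamine and methyl group metabolism, of supply and of use. *Gnmt*, a methyltransferase that uses up excess methyl donor, was the highest at 1424 CPM per kb and *Pcyt1b* the lowest. Of those 11 genes, 9 reached the median of all genes, and the median of the list was 13.9 CPM per kb. *Mat1a*, which makes the methyl donor S-adenosylmethionine in liver, had 852.5 CPM per kb.

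Phosphatidylserine is made by exchange of head groups and can be decarboxylated in mitochondria to give phosphatidylethanolamine. *Ptdss1*, which starts from phosphatidylcholine, had 11.2 CPM per kb and held 80.3% of the pair, and *Ptdss2*, which starts from phosphatidylethanolamine, had 2.73. Their ratio was 4.08 and no lower than 3.11 over the lengths. *Pisd*, the mitochondrial decarboxylase, had 4.18 CPM per kb, so *Pemt* stood 28.8-fold above it. The value of *Pisd* is uncertain. It shares 20.1% of its exonic bases with the annotated gene *Gm20671* and 3.41% with *Gm43695*, both on the same strand, and the mouse genome holds copies of it. The part of either in its value was not tested. The pseudogene *Pisd-ps1* had 8.08 CPM in the table, beside 24.1 CPM for *Pisd*, while *Pisd-ps2* had 0.164 CPM and *Pisd-ps3* had no reads.

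The branch to the mitochondrial lipid cardiolipin starts with CDP-diacylglycerol. *Cds2*, a synthase of this lipid, had 8.80 CPM per kb and 99.1% of the summed level of *Cds2* and *Cds1*. *Cds1*, its relative, had 0.0802. *Tamm41*, the mitochondrial synthase of CDP-diacylglycerol, was not counted in that family. It had 0.572 CPM per kb, below the median of all genes per summed exons. *Pgs1*, which commits CDP-diacylglycerol to phosphatidylglycerol, was low at 2.15 CPM per kb, and *Crls1*, which joins phosphatidylglycerol and CDP-diacylglycerol into cardiolipin, was 10.5-fold above it at 22.6 (5.68 to 10.5 over the lengths). Of the 6 further genes of these steps, 4 reached the median of all genes. They ranged from *Cds1* to *Ptpmt1*, the phosphatase between *Pgs1* and *Crls1*, at 18.4 CPM per kb.

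Remodelling exchanges the acyl chain of a finished phospholipid, and in these livers a single acyltransferase stood out. *Lpcat3*, which places polyunsaturated chains into phosphatidylcholine, had 28.0 CPM per kb and 89.6% of the level of the 4 membrane-bound O-acyltransferases, with 76.8% as the lowest share over the lengths. *Mboat7*, which places arachidonate into phosphatidylinositol, followed at 3.18 CPM per kb. *Mboat1* and *Mboat2*, the other lysophospholipid acyltransferases of this family, held 0.233% and 0.0242%. The 3 relatives of a second protein family were all low. *Lpcat4* had 0.32, *Lpcat2* 0.29 and *Lpcat1* 0.0654 CPM per kb, of which *Lpcat1* is best known from lung and *Lpcat2* from inflammatory cells. The order of *Lpcat4* and *Lpcat2* turned when levels were taken per coding sequence. *Lpgat1*, a lysophospholipid acyltransferase that is not among the 41 genes, had 16.0 CPM per kb. Without length correction it stood above *Lpcat3*, at 121.9 CPM beside 91.4 CPM.

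Among the phospholipase genes, *Pla2g12b* had 45.2 CPM per kb and *Pla2g6* had 9.06. *Pla2g12b* encodes a secreted phospholipase-like protein without catalytic activity that takes part in loading triglyceride onto nascent lipoproteins, and *Pla2g6* encodes a calcium-independent phospholipase. The ratio of 4.98 stayed at 3.34 or more over the lengths. The median of 14 other genes listed with the phospholipases and lysophospholipases, among them the acyltransferase *Lpgat1*, was 7.42 CPM per kb. Of these genes, 12 reached the median of all genes. They ran from *Pla2g4a*, the cytosolic phospholipase of arachidonate release, at 0.0688 to *Gde1*, a glycerophosphodiesterase, at 51.3. All 12 genes fixed for phospholipid export and transfer reached it too, from the flippase *Atp8b1* at 2.73 to *Stard10*, a lipid transfer protein, at 577.3.

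Ceramide synthesis begins with serine palmitoyltransferase, and its subunits were modest in level. *Sptlc1* had 5.33 and *Sptlc2*, the catalytic subunit, 1.67 CPM per kb, a ratio of 3.19 that fell to 1.65 per coding sequence. *Sptlc3*, an alternative catalytic subunit, had 0 reads, which with a limit of 3 reads over the 8 libraries does not show that it is absent. *Kdsr*, the reductase of the next step, had 3.06 CPM per kb. *Degs1*, which puts the double bond into dihydroceramide, had 18.9. The inhibitory subunit *Ormdl3* reached 45.2 CPM per kb.

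Between these steps, ceramide synthases join a fatty acid to the sphingoid base, each with its own preferred chain length. *Cers2*, the synthase for very long chains and the main form of liver, had 69.3 CPM per kb and 98.5% of the level of all 6 synthases, and this share was between 97.0% and 98.8% over the lengths. *Cers5* had 0.44, *Cers6* 0.36 and *Cers4* 0.28 CPM per kb. *Cers5* and *Cers6* prefer the shorter palmitoyl chain. *Cers2* was 156.1-fold above *Cers5*, the next synthase per summed exons. Per coding sequence the next was *Cers4*, 76.6-fold lower, and without length correction *Cers4* was 74.1-fold lower. Of the remaining synthases, *Cers3*, a form of skin and testis, had about 1 read in total, and *Cers1*, a form of brain and muscle, had 0. *Cers2* also stood 41.5-fold above *Sptlc2*, with a range of 27.7 to 56.9.

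**Figure D3:**
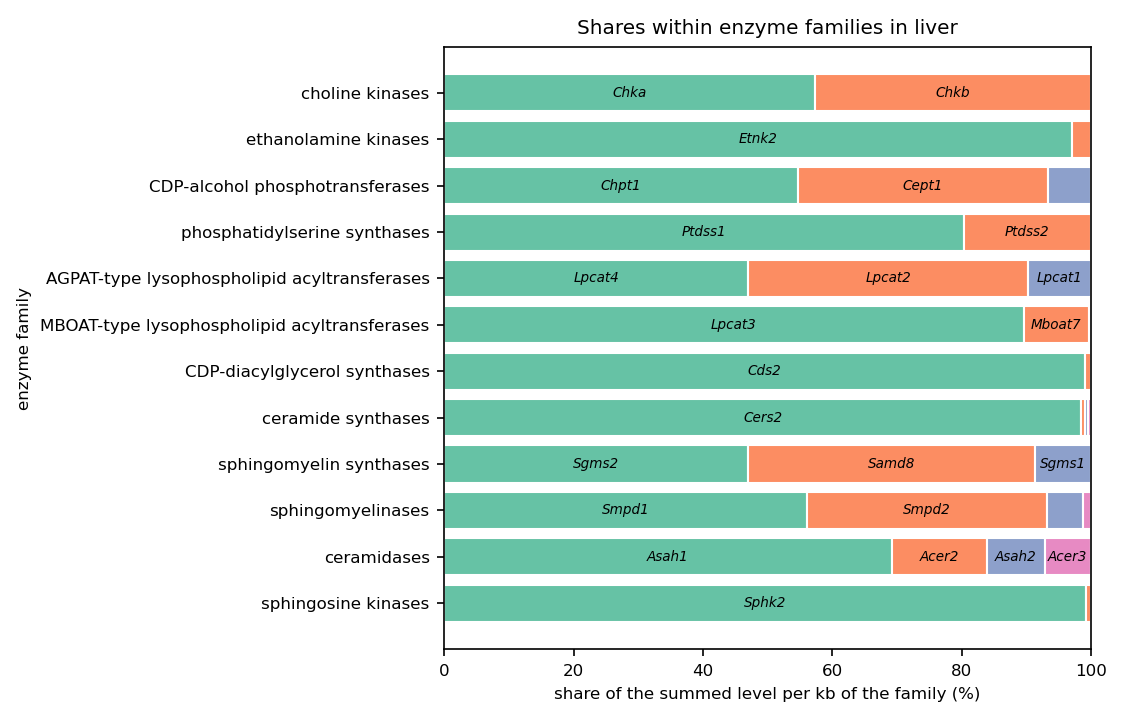
Share of each gene in the summed level per kb of its enzyme family, for 12 families, as stacked bars from 0 to 100% with the genes in order of share and segments over 7% labelled. *Cers2*, *Cds2*, *Sphk2* and *Etnk2* fill nearly all of their bars, whereas the choline kinases and sphingomyelin synthases are divided.

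Ceramide leaves the pool as sphingomyelin or glucosylceramide, and the genes for both were in the same range. *Sgms2*, the sphingomyelin synthase of the plasma membrane, had 3.68 CPM per kb. *Sgms1*, the Golgi form, had 0.68. *Ugcg*, which makes glucosylceramide, had 2.74. *Sgms2* was 5.43-fold above *Sgms1* (2.23 to 5.43 over the lengths) and 1.34-fold above *Ugcg* (1.11 to 1.73). *Samd8*, a related enzyme that makes ceramide phosphoethanolamine, had 3.46 CPM per kb, and it led the family with RefSeq exons or no length correction. *St3gal5*, which makes the ganglioside GM3 further along the glucosylceramide route, was the highest of 27 other sphingolipid genes at 127.1 CPM per kb. Of these 27 genes, 14 reached the median of all genes, and their median was 1.59 CPM per kb.

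The genes of sphingolipid breakdown ranged widely. *Smpd1*, the acid sphingomyelinase of lysosomes, had 16.1 CPM per kb and *Smpd3*, the neutral form of the membrane, 0.36, a ratio of 44.5 (29.6 to 60.6). *Smpd2*, another neutral form, had 10.6 and led the family with RefSeq exons or coding length. *Asah1*, the acid ceramidase, had 5.57 CPM per kb and 69.2% of the 5 ceramidases, a share that fell to 39.0% per coding sequence. *Acer2*, the ceramidase of the Golgi, had 1.19, and *Acer1*, the smallest of the family, had 0.00187 from about 1 read in total. Sphingosine is then phosphorylated and cleaved. *Sphk2* had 13.4 CPM per kb, 129.6-fold above *Sphk1* at 0.104 (71.0 to 129.6 over the lengths), and *Sgpl1*, the lyase that ends the pathway, had 5.78. *Sphk2* shares 12.96% of its exonic bases with *Dbp* on the opposite strand, a clock gene with 153.7 CPM, and another 8.97% with *Rpl18*, so without strand its reads and theirs cannot be told apart in that stretch.

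Levels within the enzyme families were thus often unequal. Some families join enzymes of different reactions, such as *Lpcat3* with *Mboat7*, or *Samd8* with the sphingomyelin synthases. A share in these is a share among related genes, not among isoenzymes of the same step. In 6 of 12 families the leading gene held at least 75% of the summed level per kb. These were *Etnk2*, *Ptdss1*, *Lpcat3*, *Cds2*, *Cers2* and *Sphk2*, and each of them kept that share with all 4 lengths. *Chka* passed the same limit with RefSeq exons or coding length, and *Samd8* passed it with RefSeq exons (75.4%). In 9 of 12 families the same gene led with every length and without length correction, and the exceptions were the family of *Lpcat4*, the sphingomyelin synthases and the sphingomyelinases. The differences between genes were not tested, because the spread between libraries is not in the data used here.

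Whole liver holds several cell types, and fewer cells of a type and less RNA per cell cannot be told apart in bulk samples. All 8 hepatocyte markers were abundant, between 168 (*Hnf4a*) and 29709 CPM per kb (*Alb*). The 8 Kupffer cell and macrophage markers summed to 84.8 CPM per kb, from *Adgre1* at 1.45 to *Clec4f* at 33.2. The 8 endothelial markers summed to 35.3, from *Kdr* at 1.27 to *Clec4g* at 15.4, and the 8 stellate cell markers to 25.5, from *Hgf* at 0.134 to *Dcn* at 17.1. The 6 cholangiocyte markers summed to 18.5, from *Cftr* at 0.00763 to *Spp1* at 14.5, and the 4 red blood cell markers found of 5 listed summed to 184.2, from *Hba-a2* at 5.94 to *Hbb-bs* at 101.5. Per summed exons, the 10 genes of the list below the median of all genes were each under 0.68 CPM per kb. They lay under every macrophage and endothelial marker. That follows from how they were chosen, since all of these markers lay at or above that median. The stellate marker *Hgf* and the cholangiocyte marker *Cftr* lay under some of the 10. Per coding sequence not all 10 lay under the macrophage and endothelial markers. *Sgms1* stood at 5.68, *Cers4* at 2.92 and *Cers6* at 2.70 CPM per kb, and *Adgre1* at no more than 1.68 with any length. The part that such cells have in the low levels of *Lpcat1*, *Lpcat2* or *Smpd3* was not tested.

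The start sites of the list were richer in CpG than those of all genes. The CpG ratio is the number of CpG dinucleotides over the number that the C and G content would give. A gene with several windows was given the mean ratio of its windows. The median was 0.733 for the 37 genes. It was 0.390 for all 27025 genes with a window and 0.698 for the 12655 protein-coding genes with reads. A ratio of at least 0.6, a usual mark of a CpG island, was met by 27 of the 37 genes (73.0%), against 61.2% of the protein-coding genes with reads. Of the 5 highest genes 4 had a window, and 3 of these lay under 0.6. *Pemt* had the lowest ratio of the list at 0.145, *Pla2g12b* had 0.332 and *Cers2* 0.493, while *Etnk2* had 0.672. Other genes did not follow that order. *Lpcat3*, also high in liver, had 0.979, *Chpt1* had 0.701, and *Cers4*, among the lowest, had 0.46. *Lpcat4* and *Mboat2*, both low, had 0.964 and 0.928. The ratios of *Pemt* and *Cers2* are means of 2 windows each, while *Pla2g12b* and *Etnk2* have 1 window. Of other genes with several windows, *Sgms2* (6 windows) had 0.449 and *Pcyt1a* (3 windows) 0.836. The part that the number of windows has in these ratios was not tested. Across the 37 genes, which are not independent replicates, the CpG ratio and the level had a Spearman rho of -0.35 and, with the level on a log10 scale, a Pearson r of -0.39, given as a description. The GC box GGGCGG was found on either strand for 86.5% of the 37 genes and 62.2% of the protein-coding genes with reads, and the CCAAT box CCAAT for 56.8% and 42.3%. The E-box CACGTG was found for 13.5% and 10.75%, the TATA box TATAAA for 8.11% and 10.6%, and the half-site AGGTCA, which is also part of the PPAR element, for 13.5% and 15.9%. These are shares of genes with a match in any of their windows, and the differences were not tested. The 150 bases before the start sites of *Pemt*, *Etnk2* and *Lpcat4* were chosen to show how far the windows differ, with each CpG in capitals. They hold 1 and 0 CpG for separate start sites of *Pemt*, both inside the annotated gene, 13 for *Etnk2* and 27 for *Lpcat4*. They lie at chr11:60040189-60040338 and chr11:60037006-60037155 (minus strand, *Pemt*), chr1:133363422-133363571 (plus strand, *Etnk2*) and chr2:112239691-112239840 (plus strand, *Lpcat4*).
Pemt, first start site: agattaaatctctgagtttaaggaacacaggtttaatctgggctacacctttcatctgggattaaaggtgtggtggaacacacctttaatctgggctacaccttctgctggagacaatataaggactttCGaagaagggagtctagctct
Pemt, other start site: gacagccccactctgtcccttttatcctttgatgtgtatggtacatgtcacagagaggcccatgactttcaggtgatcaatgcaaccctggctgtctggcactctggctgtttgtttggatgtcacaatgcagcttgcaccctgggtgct
Etnk2: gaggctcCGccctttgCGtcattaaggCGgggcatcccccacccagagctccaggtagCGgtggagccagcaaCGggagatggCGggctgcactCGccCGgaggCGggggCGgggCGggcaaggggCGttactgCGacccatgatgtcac
Lpcat4: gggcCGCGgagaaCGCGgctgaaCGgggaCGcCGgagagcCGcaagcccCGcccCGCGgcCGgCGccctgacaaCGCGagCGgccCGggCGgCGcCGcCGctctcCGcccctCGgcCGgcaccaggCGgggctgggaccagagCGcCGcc

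**Figure D4:**
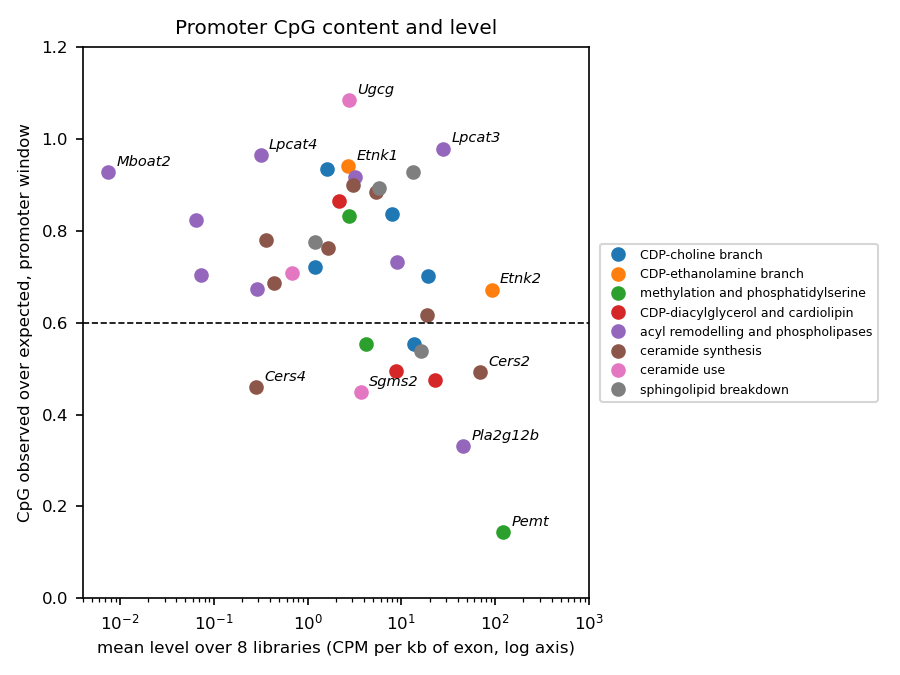
CpG ratio of the promoter windows against the mean level (CPM per kb of exon, log axis) for the 37 genes with a window, coloured by pathway step, with the dashed line at 0.6. *Pemt* (0.145) and *Pla2g12b* (0.332) sit at the lower right, high in level and low in CpG, *Lpcat4* (0.964) at the upper left, and *Lpcat3* (0.979) at the upper right and *Cers4* (0.46) at the lower left go the other way.

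In the genome the genes are dispersed. The most abundant ones lie, on GRCm38, at chr11:120610087-120617936 (*Pcyt2*, minus strand), chr11:59970614-60046489 (*Pemt*, minus strand), chr1:133363572-133380336 (*Etnk2*, plus strand), chr3:95314791-95323599 (*Cers2*, plus strand) and chr10:59403660-59421976 (*Pla2g12b*, plus strand). Exons of 19 of the 41 genes overlap those of another annotated gene. For 12 of them that gene is in the table, in 11 of them a gene on the opposite strand. For *Cers2* this stretch is 2.04% of its exonic bases, shared with *Setdb1* (25.7 CPM beside 254.7 CPM for *Cers2*). For *Lpcat3* it is 10.2%, shared with *Emg1* (52.9 CPM beside 91.4 CPM). For *Smpd3*, with 1.89 CPM, it is 4.72%, shared with the more abundant *Prmt7* (13.2 CPM).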

How the data were processed

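Poly-A RNA of liver in 8 libraries, 4 wild-type and 4 V227A, was sequenced as stranded paired-end libraries. The authors used Trimmomatic for trimming, STAR for alignment against GRCm38, featureCounts for counting and edgeR for the genotype fit. Tool versions, the counting annotation and its strand setting are not given in the sources used here. The deposited table gives 1 mean level per gene over all libraries as log2 CPM, made by the authors with edgeR, and 0 columns of values per library. Its other columns hold the authors' own comparison (log2 fold change, F, p and adjusted p) and were not used, so the planned test of genotype could not be made. The labels do not say that each library is a separate animal.

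The lowest mean log2 CPM, -3.78, is that of 8242 genes without reads. With a prior count of 2, the default of the tool that the authors named, it gives a mean library of 27474000 reads, from which each gene's reads and CPM were computed with the prior removed. As a check, 99.9% of 2378 genes with 1 to 5 reads in total came within 0.1 of a whole number. CPM was divided by the summed exons of the gene in GENCODE vM21, found for 91.4% of genes with reads and all members. Poisson intervals (95%) cover counting error only. Promoter windows came from RefSeq (GRCm38.p6). Python 3.11.15, pandas 2.3.3, numpy 2.4.6, scipy 1.17.1 and matplotlib 3.10.9 were used. Every gene of the list is named; values are given for the largest and smallest of each family of enzymes, the 5 highest and 5 lowest, and the highest and lowest of each other list. *Mat1a*, *Ormdl3*, *Lpgat1*, *Tamm41* and the genes that overlap members were named after their values were seen. The members and lists were chosen with earlier results of these data known. Alternatives were the longest transcript, coding length, exons paired with RefSeq transcripts, no length correction, the prior kept, and other sets of genes for comparison.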

Additional observations from a re-analysis of the deposited data

How the results depend on the processing

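The median level of the 41 genes, 3.68 CPM per kb, became 6.81 with the longest transcript, 19.8 with coding length and, in an alternative chosen after seeing the data, 7.27 with exons paired with RefSeq transcripts; the shorter lengths by construction raise every level. Keeping the prior count left it at 3.69. The number of genes at or above the median of all genes was 31 and stayed between 21 and 32 over 5 alternatives, 2 of them (RefSeq exons and protein-coding genes alone) chosen after seeing the data. The number of families in which the gene leading per summed exons held at least 75% was 6. It became 7 with coding length, RefSeq exons or no length correction. *Samd8*, which led the sphingomyelin synthases with RefSeq exons, held 75.4% there and is not in that count. No paired analysis was possible because the data used here hold 1 mean per gene over both genotypes and no value per library. For the same reason the genotype comparison, leaving out single libraries, the DESeq2 alternative and the filter on low counts were not run. Depth limits the order of genes under about 100 reads per library, which were 9 of the 41.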
